A study of Rattus norvegicus with 18 samples.

Results

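The comparison set rat cortical type-I astrocytes after long exposure to a fragment of the beta-amyloid peptide against the same kind of cells after short exposure. Of the 18 arrays of the series, 12 entered it. The late pool held the 3 arrays at 3 days and the 3 arrays at 5 days, and the early pool held the 3 arrays at 12 hours and the 3 arrays at 1 day. The members were chosen by their titles alone. The cells of all 12 arrays grew on immobilized peptide, residues 25 to 35, and the 6 controls on laminin and nitrocellulose were not used. The labels name no strain, age, sex or medium. With no unexposed culture in the comparison, time on the peptide and time in culture cannot be told apart.

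The question was which genes differ between days and hours of exposure when each pool is 6 arrays. Each array gave 1 signal, a linear brightness, for each of 1263 probe sets other than control probe sets. Signals under 10.9, the 10th percentile of the deposited table, were raised to that floor and log2 was taken. At the floor on all 12 arrays were 26 probe sets, which left 1237 for the test, and 1112 of these carried 1 symbol and stood for 711 genes. The labels do not say that arrays of a time came from separate cultures, so the p-values describe only how these samples scatter, and that scatter may be technical.

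Type-I astrocytes in culture are flat, polygonal glial cells that take up glutamate, buffer potassium and release cytokines, growth factors and proteases. The peptide of these residues is a short aggregating stretch of beta-amyloid that is toxic to neurons in culture and activates glia. Genes of an early response to such a stimulus, among them Ptgs2 and the dual specificity phosphatases, are usually switched on within hours through MAP kinases and factors that bind short motifs near the start of transcription.

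The 250 bases before the start of transcription are shown for 4 genes that differ between the pools: Gal, Ptgs2 and Cx3cl1, which were lower late, and Pak1, which was higher late. They come from RefSeq on the rat assembly GRCr8, at chr1:210084573-210084822 on the minus strand for Gal, chr13:64713813-64714062 on the plus strand for Ptgs2, chr19:10242821-10243070 on the minus strand for Cx3cl1 and chr1:161522200-161522449 on the plus strand for Pak1. Each is written 5′ to 3′ along its gene. Capitals mark matches on either strand to the TATA box letters TATAAA, to the cyclic AMP response element TGACGTCA or its core TGACG, which the full element contains, and to the E-box letters CACGTG.
Gal: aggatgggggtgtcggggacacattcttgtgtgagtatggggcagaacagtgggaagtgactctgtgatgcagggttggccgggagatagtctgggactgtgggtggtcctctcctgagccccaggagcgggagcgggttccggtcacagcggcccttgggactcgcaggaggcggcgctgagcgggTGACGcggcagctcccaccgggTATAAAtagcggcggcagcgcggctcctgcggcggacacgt
Ptgs2: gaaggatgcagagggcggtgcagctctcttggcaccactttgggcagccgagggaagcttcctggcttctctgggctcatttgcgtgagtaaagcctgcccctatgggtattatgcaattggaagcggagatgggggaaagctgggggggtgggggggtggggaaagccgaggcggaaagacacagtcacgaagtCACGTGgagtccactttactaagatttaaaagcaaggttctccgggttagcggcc
Cx3cl1: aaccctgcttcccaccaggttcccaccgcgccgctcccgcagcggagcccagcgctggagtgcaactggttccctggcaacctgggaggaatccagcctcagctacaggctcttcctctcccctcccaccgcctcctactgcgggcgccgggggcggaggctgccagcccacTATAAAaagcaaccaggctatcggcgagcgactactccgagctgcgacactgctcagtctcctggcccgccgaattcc
Pak1: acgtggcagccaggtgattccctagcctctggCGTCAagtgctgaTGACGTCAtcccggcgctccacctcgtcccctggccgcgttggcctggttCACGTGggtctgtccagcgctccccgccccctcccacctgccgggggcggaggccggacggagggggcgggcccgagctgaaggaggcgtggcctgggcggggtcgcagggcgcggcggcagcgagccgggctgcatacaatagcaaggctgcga

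The Gal window held TATAAA ending 36 bases before the start and TGACG ending 59 bases before it. The Cx3cl1 window held TATAAA ending 73 bases before the start, and the Ptgs2 window held CACGTG ending 50 bases before it. The Pak1 window held the E-box letters CACGTG, the full response element and a further core. A window was found for 25 of the 29 genes that were higher late and for 18 of the 21 that were lower. TGACG lay in 9 of the 18 and in 6 of the 25, against 18.2% of all 33469 windows of this length in the table. TATAAA lay in 3 of the 18 and 0 of the 25, against 12.9% of all windows. CACGTG lay in 1 of the 18 and 5 of the 25, against 5.59%, and TGACGTCA in 1 of each, against 1.59%. Each called gene counted with 1 window, while the shares run over all windows and not over the genes tested here. The share among the tested genes was not taken. The counts therefore do not show that a motif is more or less common in the called genes. A match is a run of letters and not a measured site.

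The arrays did not group by exposure time alone. Average-linkage clustering of the 12 arrays joined 1 day array 3 and 3 days array 3 to the arrays at 12 hours, here called cluster 1. The other 7 arrays formed cluster 2. Within their own times, 1 day array 3 and 3 days array 3 therefore stood apart. Of the variation in log2 signal (sum of squares), the pools took 26.5% on 1 degree of freedom, the clusters 46% on 1 and the 4 times 52.6% on 3. The median correlation was 0.963 between arrays of a time, 0.924 between times of a pool and 0.875 between pools. The 2%-trimmed mean signal was 502.067 to 502.51, the median signal was 101.6 to 105.6 at 12 hours and 108.2 to 119.6 at the other times, and 8.95% to 12% of probe sets lay at or under the floor, and the ranges of all 3 overlapped between the clusters. Because the late pool has 1 array in cluster 1 and the early pool has 2 in cluster 2, pool and cluster overlap in part. The main results are therefore given beside a fit with the cluster as a block. The clusters were drawn from these same values, so p-values of that fit may be too small.

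Markers of astrocytes were present in both pools. Vim, the intermediate filament protein vimentin, had signals of 11977.8 to 17463.4 early and 12554.5 to 18831.2 late. Glul, which makes glutamine from glutamate, had 6263.2 to 12630.1 early and 4981.2 to 9839.4 late on its brightest probe set. The signal of S100b, an astrocyte protein that binds calcium, was 344.4 to 588.3 on 5 early arrays and 555.2 to 1056.7 on 5 late arrays on probe set S53527mRNA_s_at. It was at most 21.6 on 1 day array 3 and on 3 days array 3. The other S100b probe set, rc_AI146214_at, was not flagged on either array in the outlier check below. Slc1a3, the glial glutamate transporter, followed the same arrays, with 301.9 and 293.1 on these 2 against 2396.4 to 4874.2 on the 7 arrays of cluster 2 and 565.4 to 654.8 at 12 hours. Gfap, App and Fn1 had no probe set under a single symbol and were not analysed.

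Summed signals of the marker lists overlapped between the pools for every cell type, but some medians moved. For 12 astrocyte genes the sum was 42834.9 to 60206.1 early, median 59880.8, and 39249.6 to 72828.1 late, median 54931.4. For 12 neuron genes it was 4872.7 to 7358.1, median 5886.2, and 5499.8 to 8378.9, median 7688.8, so that the late median lay above the highest early array. For 3 fibroblast, meningeal and vascular genes it was 11212.3 to 35392.1, median 15830.3, and 20178.8 to 47505.7, median 24988.1. Most of that sum came from the Igfbp2 probe sets J04486_at and M91595exon_s_at. Their medians were 5179.4 and 6657.1 early and 9069.2 and 14412.0 late. Of the 9 probe sets of that list 4 had a positive log2 difference, and the median difference was -0.05. For 1 gene to move such a sum is not a shift of the list. For 6 oligodendrocyte genes the sum was 1735.0 to 2805.9 early and 1653.0 to 2771.7 late, with medians of 2426.8 and 2424.4. The myelin gene Mog lay at the floor on all 12 arrays. Itgam, the only microglia gene measured, had 32.1 to 64.6 early and 22.3 to 77.0 late. The part of any such cells in the results below was not tested. In cultures measured whole, fewer cells of a type and less RNA per cell cannot be told apart.

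After days on the peptide, the neuropeptide gene Gal, the chemokine gene Cx3cl1, the prostaglandin enzyme gene Ptgs2, the cytokine gene Tgfb1 and the kinase genes Map2k1 and Mapk6 had lower signals than after hours. The adhesion protein genes Lsamp and Nlgn1, the receptor genes Gria3 and Chrna7 and the sodium leak channel gene Nalcn had higher signals. So had the trophic factor gene Cntf and the genes of 2 binding proteins of insulin-like growth factors, Igfbp2 and Igfbp5. Of these, Nlgn1, Gria3 and Chrna7 did not pass with the cluster as a block (limma adjusted p of 0.0553, 0.0641 and 0.0641). With single arrays left out in turn, Cntf passed in 3 of 12 fits, and Igfbp2 and Gria3 in 2 of 12 each. With exposure time as a random block, only Gal, Cx3cl1, Tgfb1, Lsamp and Nalcn of the genes in this paragraph passed. Without the 12 hours arrays only Gal and Cx3cl1 of them did. Chrna7 was higher on L31619_g_at alone, and its other probe sets had log2 differences of 0.21 and -1.05 without passing. The largest differences were 16.7-fold lower for Gal and 20.6-fold higher for Lsamp.

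At a limma adjusted p under 0.05, 34 probe sets were higher late, 2.75% of the 1237 tested, and 28 were lower, 2.26%. They stood for 29 and 21 genes, and 5 of the 62 had no single symbol. With the signals quantile normalized the split was 29 higher and 37 lower, and with them centred on the median 31 and 39. The median difference over all probe sets was 0.03 on the log2 scale. At an unadjusted p under 0.05 lay 273 probe sets. All 6 late signals lay above all 6 early ones for 16 probe sets, 1.29% of those tested, and below them for 22, 1.78%. Of the probe sets past the threshold this held for 13 of 34 and 17 of 28.

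With the cluster as a block, limma called 25 probe sets higher, 2.02%, and 29 lower, 2.34%, and 32 of the 62 were among them, 16 in each direction. All 62 kept their direction in that fit. Without 1 day array 3 and 3 days array 3, limma called 98 higher and 105 lower, and all 62 were among these. Both arrays were picked from these same values because they lay apart from their times. The counts without them are therefore no independent support. The 3 days array 3 lay on the early side of the midpoint between the pool means for 20 of the 34 and 10 of the 28. The 1 day array 3 lay on the late side for 6 and 8.

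**Figure D1:**
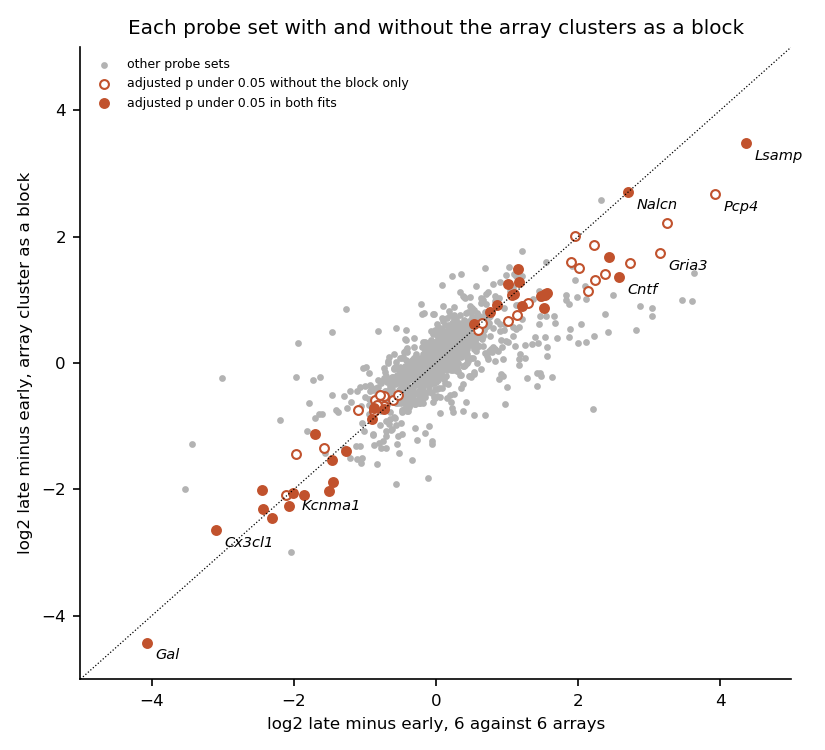
Each point is 1 of 1237 probe sets, with the log2 late minus early difference of 6 against 6 arrays on the horizontal axis and the same difference with the array cluster as a block on the vertical axis. Filled orange points passed an adjusted p of 0.05 in both fits (32) and open ones without the block only (30), and Gal, Nalcn and Cx3cl1 lie near the dotted line of equality while Pcp4, Gria3 and Cntf lie below it.

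The counts changed with the times and arrays that entered. Leaving out the 1 day or the 3 days arrays also left out an array that stood apart. The part of the time and that of the array therefore cannot be told apart. Without the 12 hours arrays limma called 0 probe sets higher and 4 lower, with 133 at an unadjusted p under 0.05. Without the 5 days arrays it called 2 and 4. Without the 1 day arrays it called 90 and 67, and without the 3 days arrays 86 and 94. With the 4 times as a random block 11 probe sets passed, 5 higher and 6 lower, and all were among the 62. Leaving out 1 array at a time gave 9 to 92 higher and 12 to 106 lower, with the largest counts without 3 days array 3 and the smallest without 12 hours array 3. In every such fit 9 of the 34 and 12 of the 28 passed.

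**Figure D2:**
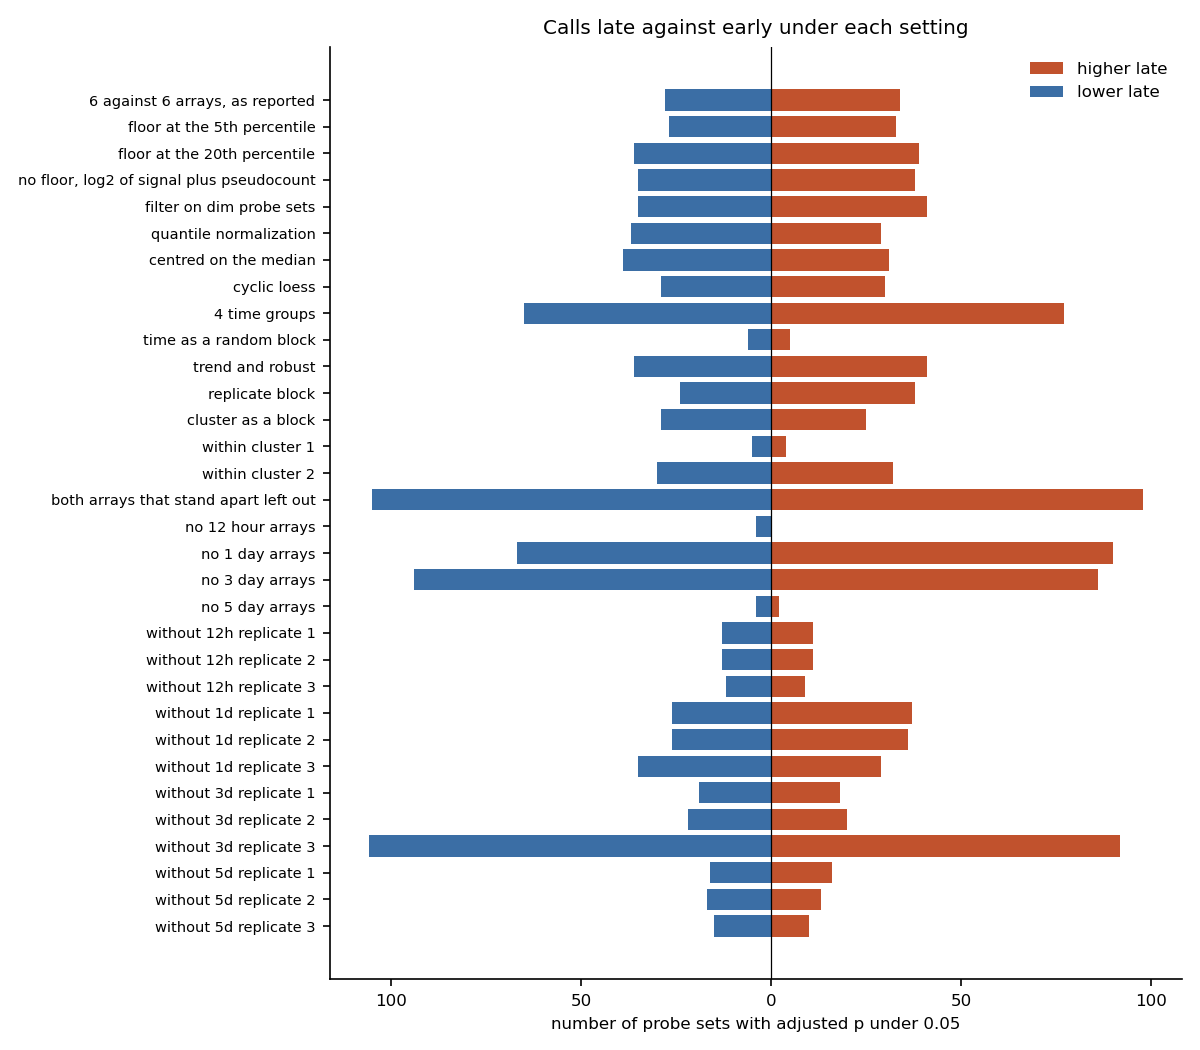
Bars give the number of probe sets with a limma adjusted p under 0.05 that were higher late (orange, to the right) or lower late (blue, to the left) under each setting named on the vertical axis. The count is 34 and 28 as reported, rises to 98 and 105 without the 2 arrays that stand apart and drops to 0 and 4 without the 12 hours arrays.

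The probe sets that passed in every fit with 1 array left out, with time as a random block and with the cluster as a block numbered 11. They stood for 9 named genes, Gal, Cx3cl1, Kcnma1 and Tgfb1 lower late and Lsamp, Nalcn, Fyn, Ctxn1 and Pak1 higher late, and 1 probe set without a symbol. Gal, Kcnma1 and the Cx3cl1 probe set rc_AA800602_s_at also passed without the 12 hours arrays and without the 5 days arrays.

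The times inside a pool were also compared. From 12 hours to 1 day limma called 0 probe sets higher (0.0%) and 3 lower (0.243%), and 1 of the 3 was the Glul probe set rc_AI012265_i_at, which fell by 1.04 (limma adjusted p = 0.0363). From 3 days to 5 days it called 23 higher (1.86%) and 5 lower (0.404%). None of the probe sets of either comparison was among the 62. The pooled fit counts a difference inside a pool as error, so such probe sets were less likely to pass in it. Apoe, the main lipid carrier made by astrocytes, was 1 of the 23, and its probe set S76779_s_at rose by 3.24 (limma adjusted p = 0.0461). Its other probe set, X04979_at, had a difference of 2.30 and did not pass (limma adjusted p = 0.0777). The signals on S76779_s_at were 985.5, 1125.7 and 308.1 at 3 days and 5296.7, 8126.8 and 6709.7 at 5 days. The pooled difference of this probe set was -0.27 (limma adjusted p = 0.901), while its 3 days signals lay below 5 of 6 early arrays and its 5 days signals above all 6.

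All 34 probe sets that were higher had both late means above both early means, and all 28 that were lower had both below. The largest step between neighbouring times lay between 1 day and 3 days for 24 of the 34 and 19 of the 28. It lay between 12 hours and 1 day for 3 and 4, and between 3 days and 5 days for 7 and 5. These probe sets were called for a difference between the pools, and only the step from 1 day to 3 days crosses them. The calling thus favours both patterns, which are not a separate result on timing.

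**Figure D3:**
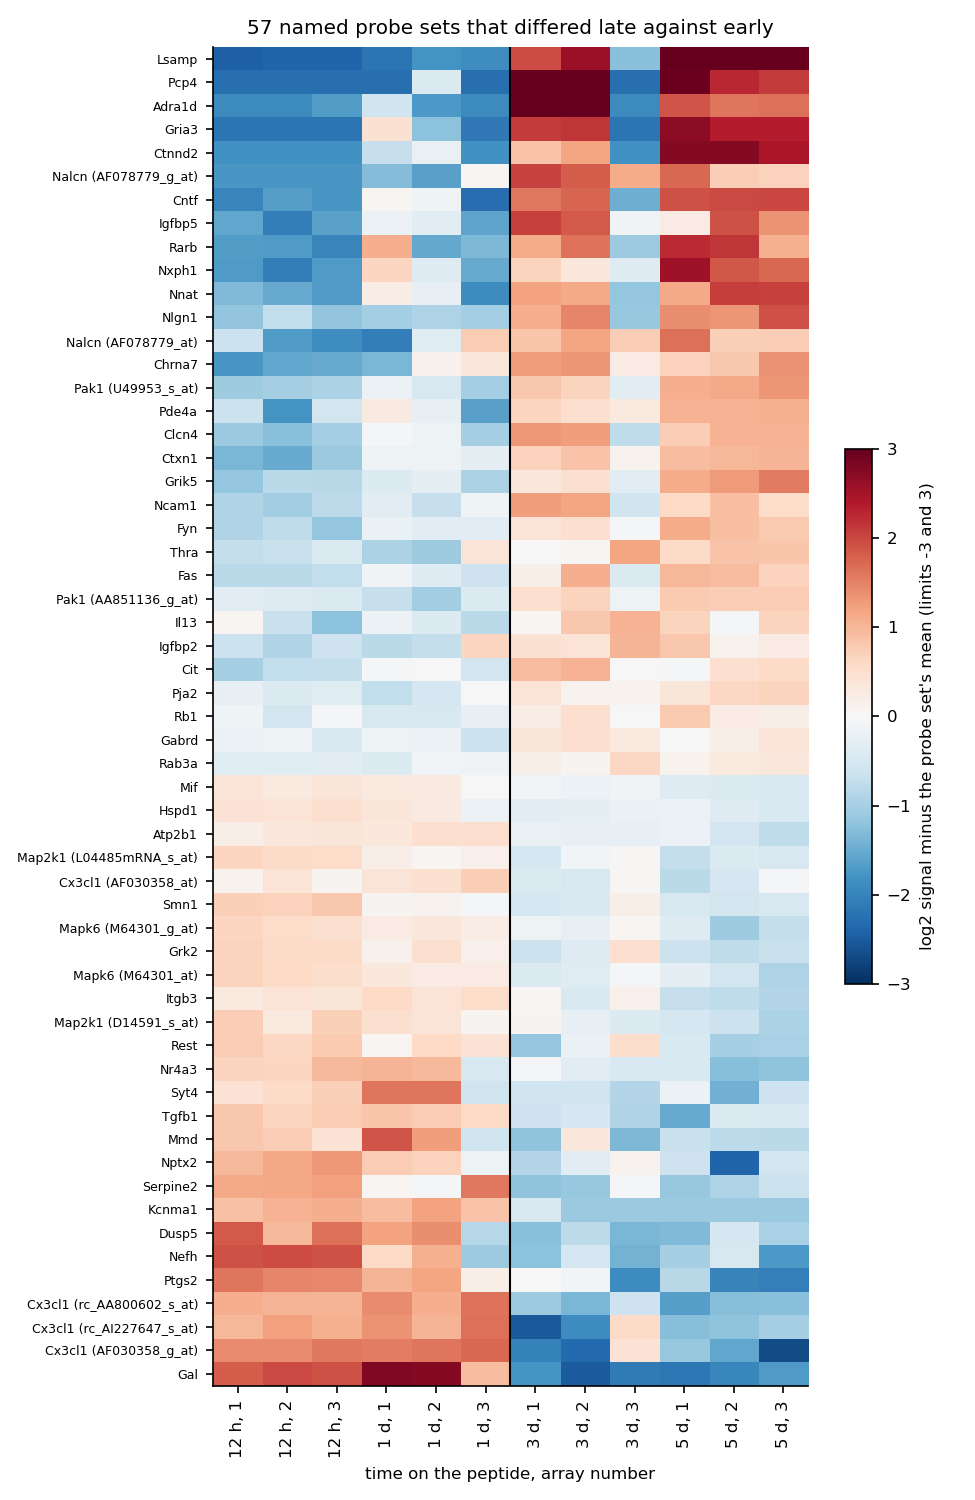
Rows are the 57 probe sets with 1 symbol that differed, ordered by their difference, and columns are the 12 arrays by time, with early to the left of the black line. Colour gives log2 signal minus the mean of the probe set, between -3 and 3, and 3 days array 3 is paler than, or opposite to, the other late arrays in many of the upper rows.

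Gal encodes the precursor of galanin, a neuropeptide that some glia also make after injury. Its signals on probe set J03624_at were 234.0 to 261.8 at 12 hours, 458.5, 448.4 and 126.5 at 1 day, 19.5, 11.8 and 15.3 at 3 days and 14.9, 17.2 and 20.6 at 5 days. The pools did not overlap, and the lowest early array was 1 day array 3. Gal fell by 4.06 ± 0.29 (SE) on the log2 scale, 16.7-fold, from 297 ± 131 (SD, n = 6) to 16.6 ± 3.24 (SD, n = 6) (limma adjusted p = 4.69e-06). The difference was -4.42 with the cluster as a block, -3.78 within cluster 1 and -4.78 within cluster 2. Among 18 neuropeptide probe sets of 14 genes Gal alone passed. With the block Gal fell and Tac1, which encodes substance P, rose (0.57 without the block and 1.22 with it, limma adjusted p 0.371 and 0.00101).

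Cx3cl1 encodes fractalkine, a membrane-bound chemokine whose receptor is carried by microglia. All 4 of its probe sets fell, by 3.09, 2.44, 2.43 and 0.73 on the log2 scale. On rc_AA800602_s_at the signals were 410.9, 387.6 and 386.8 at 12 hours, 515.8, 406.7 and 595.0 at 1 day, 74.0 to 124.4 at 3 days and 60.7, 78.7 and 80.6 at 5 days. The pools did not overlap on any of the 4. That probe set fell 5.37-fold (limma adjusted p = 6.41e-06), and its difference was -2.31 with the cluster as a block. The probe set AF030358_at lost its call with the block (limma adjusted p = 0.0855), and AF030358_g_at and rc_AI227647_s_at kept it.

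Ptgs2, the inducible enzyme of prostaglandin synthesis, had 2486.7, 2250.6 and 2194.7 at 12 hours, 1653.5, 1835.0 and 917.7 at 1 day, 802.4, 768.5 and 219.8 at 3 days and 453.4, 200.9 and 195.2 at 5 days. Its mean stepped down at each time, and the lowest early array still lay above the highest late one. Ptgs2 fell by 2.30 ± 0.42 (SE), 4.92-fold (limma adjusted p = 0.0106), and by 2.45 with the cluster as a block. Tgfb1 encodes transforming growth factor beta 1, which restrains inflammation and promotes matrix production. It lay at 2152.9 to 2515.9 on the early arrays, median 2413.8, and at 501.6 to 1074.3 on the late ones, median 959.65. The 6 early values were close together and far from the late ones, and Tgfb1 fell by 1.47 ± 0.19 (SE) (limma adjusted p = 0.00113), and by 1.53 with the block (limma adjusted p = 0.00342). Mif, a cytokine present in most cells, fell less, by 0.54 (limma adjusted p = 0.032), from 7943.0 to 10309.2 early to 5771.9 to 7400.5 late, and its limma adjusted p was 0.0641 with the cluster as a block.

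The cytokine and inflammation list counted 45 probe sets of 27 genes, with a median of -0.06. Of the 45, 6 fell and 1 rose, against 2.26% and 2.75% of all probe sets. The 6 were all probe sets of Cx3cl1 and 1 each of Ptgs2 and Tgfb1. In the block fit 5 of the 45 fell and 0 rose, against 2.34% and 2.02% of all probe sets in that fit. The 5 were the same without the Cx3cl1 probe set AF030358_at. Probe sets of 1 gene are not independent of each other, so these counts do not show a fall across the list. The probe set that rose belonged to Il13, a cytokine of type 2 immunity, with a median signal of 41.15 early and 94.3 late, a difference of 1.07 and a limma adjusted p of 0.032. Its ranges overlapped, and with the cluster as a block its limma adjusted p was 0.0649. None of the 17 probe sets of cytokine receptors and Jak-Stat genes passed in either fit, and their median was -0.41. The lowest p there belonged to Stat3 and Jak1, with differences of -0.94 on rc_AI236828_s_at and -0.82 and limma adjusted p-values of 0.06 and 0.0754.

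**Figure D4:**
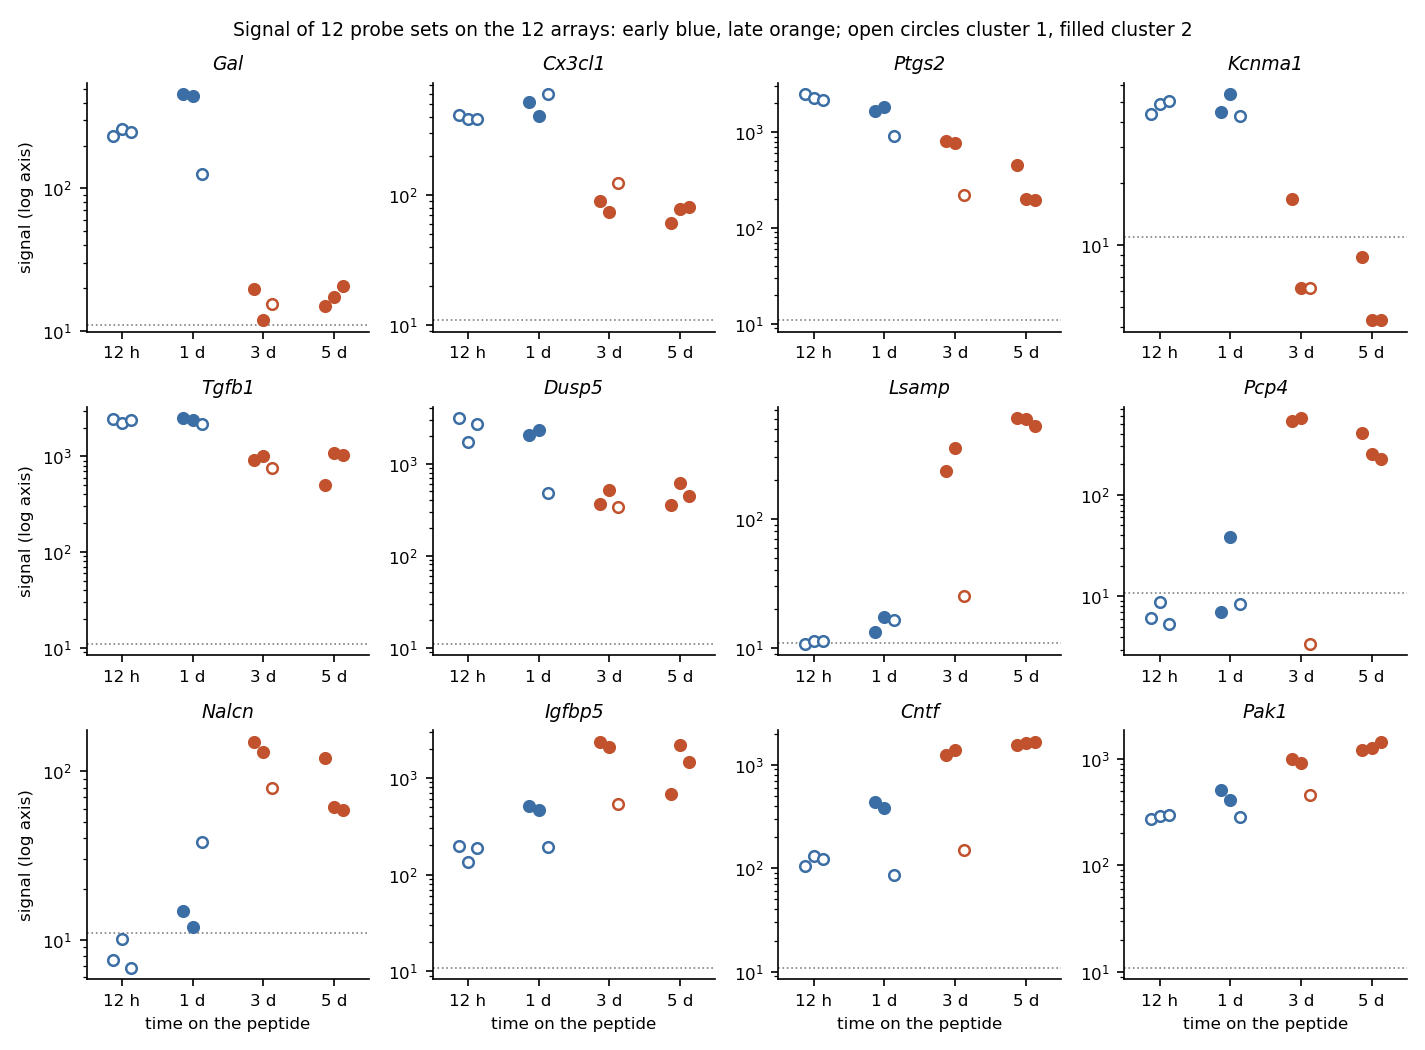
Each panel gives the signal of 1 probe set on a log axis for the 12 arrays by time on the peptide, with early arrays in blue, late arrays in orange, cluster 1 open and cluster 2 filled, and the floor of 10.9 as a dotted line. Gal, Cx3cl1, Kcnma1 and Tgfb1 separate the pools on every array, whereas the 3 days array of cluster 1 lies near the early arrays for Lsamp, Pcp4 and Cntf.

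The phosphatase and kinase genes that follow were taken because they passed, not from a list, so they say nothing of their pathway as a whole. Dusp5, a nuclear phosphatase that switches off ERK, had 3131.4, 1703.1 and 2728.9 at 12 hours, 2025.9, 2299.8 and 482.9 at 1 day, 365.3, 510.0 and 339.1 at 3 days and 350.8, 615.2 and 445.1 at 5 days. Apart from 1 day array 3, which lay among the late values, every early array lay above every late one. Dusp5 fell by 2.07 ± 0.39 (SE), 4.19-fold (limma adjusted p = 0.0113), by 2.27 with the cluster as a block (limma adjusted p = 0.0174) and by 2.38 without the 2 arrays that stood apart. Map2k1, the kinase MEK1 that activates ERK, fell on both probe sets, by 0.90 and 0.73, and Mapk6, the atypical kinase ERK3, by 0.87 and 0.83. On Mapk6 M64301_at the early arrays lay at 1549.9 to 2087.9 and the late ones at 692.5 to 1258.5, with no overlap. With the cluster as a block, limma kept 1 probe set of each kinase and lost the other, at adjusted p-values of 0.0876 and 0.0855. Grk2, which silences activated G protein-coupled receptors, fell by 0.86 (limma adjusted p = 0.042), but 3 days array 3 had 415.0 against 171.6 to 222.3 on the other late arrays, and its difference within cluster 1 was 0.02. With the cluster as a block its limma adjusted p was 0.128.

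Nr4a3, an orphan nuclear receptor induced as an immediate early gene, fell by 1.27 on rc_AI176710_at (limma adjusted p = 0.032) and by 1.39 with the cluster as a block (limma adjusted p = 0.0408), while its other probe sets had 1.09 and -0.74 without passing. It was the only call among 19 probe sets of 10 immediate early genes, whose median was -0.13. With the block Jund, a member of the AP-1 family, rose as well (1.22 without and 1.78 with the block, limma adjusted p 0.128 and 0.0291). Rest, the repressor of neuronal genes outside neurons, had 82.3 to 135.1 early and 35.1 to 68.2 late apart from 113.3 on 3 days array 3. It fell by 1.09 (limma adjusted p = 0.0412), and with the cluster as a block the adjusted p was 0.126.

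Kcnma1 encodes the calcium-activated BK potassium channel. On U55995_at it had 42.5 to 54.3 on the early arrays and 16.8, 6.2, 6.2, 8.8, 4.3 and 4.3 on the late ones, and 5 of these lay under the floor. The pools did not overlap, and with the floor the difference was -2.01 ± 0.15 (SE) (limma adjusted p = 4.69e-06), which understates it, and it was -2.06 with the cluster as a block. The 3 other Kcnma1 probe sets had 1.08, -0.22 and -0.08 and did not pass, so the fall was seen on 1 of 4. It was the only call among 76 probe sets of 49 potassium channel genes, whose median was 0.09. With the block Kcnj14, an inward rectifier, fell as well (-1.07 without and -1.31 with the block, limma adjusted p 0.056 and 0.0394). Atp2b1, the plasma membrane calcium pump, fell by 0.73, from 236.6 to 295.4 early to 123.0 to 184.2 late (limma adjusted p = 0.0113).

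Other genes that fell act at the cell surface, in secretion or in protein handling. Serpine2, an inhibitor of thrombin and plasminogen activators that glia secrete, had 2111.5 to 6512.6 early and 945.6 to 2148.5 late. Only 3 days array 3, with 2148.5, reached the lowest early array, and Serpine2 fell by 1.70 (limma adjusted p = 0.0113). Itgb3, the integrin beta 3 subunit, fell by 0.87 without overlap. The neurofilament gene Nefh fell by 2.11, the secreted pentraxin gene Nptx2 fell by 1.57 and the vesicle protein gene Syt4 fell by 1.45, each on 1 of 2 probe sets. On their other probe sets Nptx2 and Nefh showed -0.04 and 0.23, and Syt4 showed -2.04 (limma adjusted p = 0.167). Mmd, a membrane protein first found in maturing macrophages, fell by 1.5, and Smn1, which assembles spliceosomal particles, by 0.78. Hspd1, the mitochondrial chaperonin, fell by 0.60 without overlap and was the only call among 10 heat shock probe sets, whose median was 0.29. In the fit with the cluster block Serpine2, Syt4, Mmd and Atp2b1 kept the call, while Itgb3, Nptx2, Nefh, Smn1 and Hspd1 had limma adjusted p-values of 0.0617 to 0.134.

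Adhesion and synapse genes passed in both directions, since Itgb3 and Nptx2 fell. Lsamp, a membrane-anchored adhesion protein of limbic neurons, had 10.7, 11.4 and 11.3 at 12 hours, 13.2, 17.3 and 16.5 at 1 day, 233.4, 355.1 and 25.1 at 3 days and 606.5, 599.7 and 529.6 at 5 days. The early arrays lay close to the floor, and 3 days array 3 lay between them and the other late arrays. Lsamp rose by 4.36 ± 0.67 (SE), 20.6-fold, from 13.4 ± 2.85 (SD, n = 6) to 392 ± 232 (SD, n = 6) (limma adjusted p = 0.00443). Its difference was 3.48 with the cluster as a block, 1.02 within cluster 1 and 4.85 within cluster 2, and 5.11 without the 2 arrays that stood apart.

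Nlgn1, a postsynaptic adhesion protein that binds neurexins, rose by 2.02, from 4.8 to 14.9 early to 52.3 to 94.2 late apart from 11.3 on 3 days array 3. Nxph1, a secreted ligand of neurexins, rose by 2.24 and Ctnnd2, a catenin of neuronal junctions, by 2.73. The neural cell adhesion molecule gene Ncam1 rose by 1.29 on X06564_at, and its 2 other probe sets had 1.46 and 1.13 with limma adjusted p-values of 0.0753 and 0.095. For Ncam1 the 3 days array 3 had 752.7 and the other late arrays 1653.6 to 2718.7, against 552.7 to 1045.5 early. With the cluster as a block these 4 genes had limma adjusted p-values of 0.0553 to 0.112 and differences of 0.95 to 1.58. Within cluster 1 Nlgn1 had -0.10 and Ctnnd2 0.00. Among 16 probe sets of 10 matrix and adhesion genes Ncam1 was the only call, and the median was 0.54. With the block 0 of the 16 passed.

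The lists of channels and transmitter receptors passed at about the share of all probe sets, 2.75% higher. Of 43 sodium and calcium channel, 40 glutamate receptor, 57 GABA, glycine and acetylcholine receptor and 76 potassium channel probe sets, 2, 2, 2 and 0 rose. Nalcn encodes a sodium leak channel that sets the resting potential of neurons. On AF078779_g_at it had 7.6, 10.1 and 6.8 at 12 hours, 14.8, 11.8 and 37.8 at 1 day, 149.6, 129.7 and 79.1 at 3 days and 120.0, 61.4 and 58.7 at 5 days. The 12 hours arrays lay under the floor, 1 day array 3 was the highest early array, and the pools did not overlap. Nalcn rose by 2.71 ± 0.35 (SE) (limma adjusted p = 0.00122), and by 2.70 with the cluster as a block. Its other probe set rose by 1.95 (limma adjusted p = 0.0298), and its limma adjusted p was 0.0537 with the block. Both were the only calls among 43 probe sets of 26 sodium and calcium channel genes, whose median was 0.13. With the block 3 of the 43 rose, 1 of Nalcn and 1 each of the calcium channel subunit genes Cacna2d1 (3.61 without and 0.98 with the block, limma adjusted p 0.128 and 0.0432) and Cacnb3 (0.30 and 0.64, limma adjusted p 0.45 and 0.0309). Of all probe sets 2.02% rose in that fit.

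Gria3, an AMPA receptor subunit, had 3.1 to 68.1 early and 211.3 to 319.2 on 5 late arrays, while 3 days array 3 had 6.5. It rose by 3.15 on X54656_at (limma adjusted p = 0.0419), and its other probe set had 2.38 (limma adjusted p = 0.12). Grik5, a kainate receptor subunit, rose by 1.49, from 181.9 to 337.8 early to 328.5 to 1193.2 late. These were the only calls among 40 glutamate receptor probe sets of 23 genes, whose median was 0.08. Adra1d, an alpha-1 adrenergic receptor, rose by 3.25 on M60654_at, and its other probe set had 0.52 (limma adjusted p = 0.0919). On M60654_at 3 days array 3 had 9.0 and lay with the early arrays, which had 5.5 to 27.3.

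Chrna7, the alpha 7 nicotinic receptor that beta-amyloid is known to bind, rose by 1.91 on L31619_g_at, from a median of 23.3 early to 131.2 late. Its 2 other probe sets had 0.21 and -1.05 without passing. Gabrd, a GABA receptor subunit, rose by 0.59 on 1 of 2 probe sets, without overlap. They were the only calls among 57 probe sets of 39 GABA, glycine and acetylcholine receptor genes, whose median was 0.09. Clcn4, an intracellular chloride and proton exchanger, rose by 1.53 (limma adjusted p = 0.032). Grik5 and Clcn4 kept the call with the cluster as a block, and Gria3, Adra1d, Chrna7 and Gabrd had limma adjusted p-values of 0.0641 to 0.0854. In that fit Chrna2, another nicotinic receptor subunit, fell (-0.79 without and -0.98 with the block, limma adjusted p 0.0507 and 0.0287).

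Cntf, a cytokine that astrocytes make and that keeps neurons and oligodendrocytes alive, had 105.2, 130.9 and 122.9 at 12 hours, 433.5, 379.3 and 85.3 at 1 day, 1238.5, 1397.5 and 149.2 at 3 days and 1546.2, 1636.9 and 1667.8 at 5 days. Both arrays that stood apart lay near the 12 hours arrays, and the other arrays rose in steps. Cntf rose by 2.58 ± 0.63 (SE) (limma adjusted p = 0.037). The difference was 1.36 with the cluster as a block, limma adjusted p 0.0138. It was 0.44 within cluster 1 and 1.88 within cluster 2. With single arrays left out in turn, Cntf passed in 3 of 12 fits. It did not pass with time as a random block (limma adjusted p = 0.154). Cntf was the only call among 24 probe sets of 11 neurotrophic genes, with a median of 0.37.

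Igfbp5, which binds insulin-like growth factors, had 136.0 to 508.4 early and 536.0 to 2358.0 late on M62781_at, with no overlap. It rose by 2.43 ± 0.46 (SE) (limma adjusted p = 0.0113), and its other probe set had 1.83 (limma adjusted p = 0.0579). Igfbp2, of the same family, rose by 1.02 on M91595exon_s_at (limma adjusted p = 0.0452). Its early arrays lay at 5678.6 to 6891.7 apart from 16527.6 on 1 day array 3, and its late arrays at 11445.3 to 21437.3. Both kept the call with the cluster as a block, at 1.68 and 1.25. With single arrays left out in turn, Igfbp5 passed in all 12 fits and Igfbp2 in 2 of 12. With time as a random block neither passed (limma adjusted p of 0.066 and 0.183). Igfbp5 and Igfbp2 were the only calls among 22 probe sets of 10 genes of the insulin-like growth factor axis, whose median was -0.02. With the block 4 of the 22 rose, the others being a second probe set of Igfbp2 (0.90 without and 1.28 with the block, limma adjusted p 0.0606 and 0.00507) and Igfbp3 (3.63 and 1.43, limma adjusted p 0.0776 and 0.0241). Of all probe sets 2.75% rose without the block and 2.02% with it. Fas, a death receptor, rose by 1.15, from a median of 72.35 to 202.3, and was the only call among 31 probe sets of 12 apoptosis genes, whose median was -0.03. Its limma adjusted p was 0.0647 with the cluster as a block.

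Pak1, a kinase that links small GTPases to actin, rose by 1.57 on U49953_s_at and by 1.10 on AA851136_g_at (limma adjusted p = 0.00934 for both). On U49953_s_at it had 274.4 to 503.3 early and 455.9 to 1441.3 late, and 455.9 on 3 days array 3 was the only late value under the highest early one. Fyn, a Src-family kinase, rose by 1.22 ± 0.23 (SE), from 324.1 to 630.6 early to 694.9 to 1548.4 late, without overlap. Ctxn1, which encodes cortexin, a small membrane protein of cortex, rose by 1.53 ± 0.29 (SE), from 91.4 to 235.1 to 280.3 to 531.1, also without overlap. Pak1, Fyn and Ctxn1 kept the call with the cluster as a block, at 1.10, 0.90 and 1.10.

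Pcp4, a small calmodulin-binding protein of Purkinje cells, had 5.4 to 38.8 early and 226.1 to 569.0 on 5 late arrays, and 3.4 on 3 days array 3. It rose by 3.93 (limma adjusted p = 0.0235), and by 2.67 with the cluster as a block, where the adjusted p was 0.0537. Pde4a, which breaks down cyclic AMP, rose by 1.54 without overlap, Cit, a kinase of cell division, by 1.01, Pja2, a ubiquitin ligase, by 0.76 without overlap, and Rab3a, a GTPase of vesicle release, by 0.54 without overlap. The nuclear receptor genes Rarb, which binds retinoic acid, and Thra, which binds thyroid hormone, rose by 2.38 and 1.15. Nnat, an imprinted gene of developing brain, rose by 2.15 and Rb1, the retinoblastoma tumour suppressor, by 0.64. Thra, Pja2 and Rab3a kept the call with the cluster as a block, and Pde4a, Cit, Rarb, Nnat and Rb1 had limma adjusted p-values of 0.0511 to 0.129. The Rb1 probe set, D25233cds_at, passed in 1 of 12 fits with 1 array left out. D25233UTR#1_at and D25233UTR#1_g_at, named after the same record but without a single symbol, were also higher late. Both passed in all 12 of those fits and kept the call with the block.

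The lists that define the cells or the stimulus gave few calls. None of the 25 astrocyte marker probe sets of 12 genes passed, with a median of -0.06. In the block fit the median was -0.38 and 2 of the 25 fell, Slc1a2 on rc_AI044517_at (-1.21 without and -1.51 with the block, limma adjusted p 0.0579 and 0.0357) and Nes, the filament protein nestin of immature and reactive astrocytes (-0.55 and -1.29, limma adjusted p 0.511 and 0.0331). Over all probe sets the median in that fit was 0.06, and 2.34% fell. Vim had -0.06, the 4 Glul probe sets -0.54 to -0.39, the S100b probe sets 0.69 and 0.01, and the 3 of Slc1a2 -1.21 to -0.07. Slc1a3 had 1.28, 1.48, 1.42 and -0.55, and on the 3 brightest of these the difference was -0.23 to -0.16 with the cluster as a block. Gja1, the gap junction protein connexin 43, had -1.45 (limma adjusted p = 0.146), and 3 days array 3 had 11591.7 against 1058.6 to 1799.0 on the other late arrays.

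Of 26 reactive astrocyte probe sets Ptgs2 alone fell. In the block fit 4 of the 26 fell, Ptgs2, Nes and both probe sets of Fgf2, a growth factor that acts on glia (-0.80 and -1.06 without the block, -1.27 and -1.58 with it, limma adjusted p 0.157 and 0.117 without and 0.0168 with it for both). Of all probe sets 2.34% fell and 2.02% rose with the block. None of 14 metallothionein and antioxidant, 7 iron and heme, 24 growth factor and receptor kinase, 19 glutamate uptake, 11 oligodendrocyte and 7 amyloid processing and lipoprotein probe sets passed. Their medians ran from -0.25 for glutamate uptake to 0.29 for iron and heme, against 0.03 for all probe sets. With the block the growth factor list gave the 2 Fgf2 calls and glutamate uptake the Slc1a2 call. In that fit the iron list gave Tfrc, the transferrin receptor, which fell (-0.70 without and -1.16 with the block, limma adjusted p 0.222 and 0.0298). The amyloid list gave Psen2, a subunit of gamma-secretase, whose probe set X99267_at rose (-0.02 and 0.78, limma adjusted p 0.981 and 0.0363). The other 2 lists gave none. Among 23 neuron marker probe sets Nefh alone passed, the median was 0.20, and the summed signal overlapped between the pools. With the block 0 of the 23 passed. Nefh was also the only call among 26 cytoskeleton probe sets, where the block gave Nes alone, and Igfbp2 the only gene called among 9 fibroblast, meningeal and vascular probe sets, on 1 probe set and on 2 with the block. Among 27 vesicle release probe sets Rab3a rose and Syt4 fell.

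**Figure D5:**
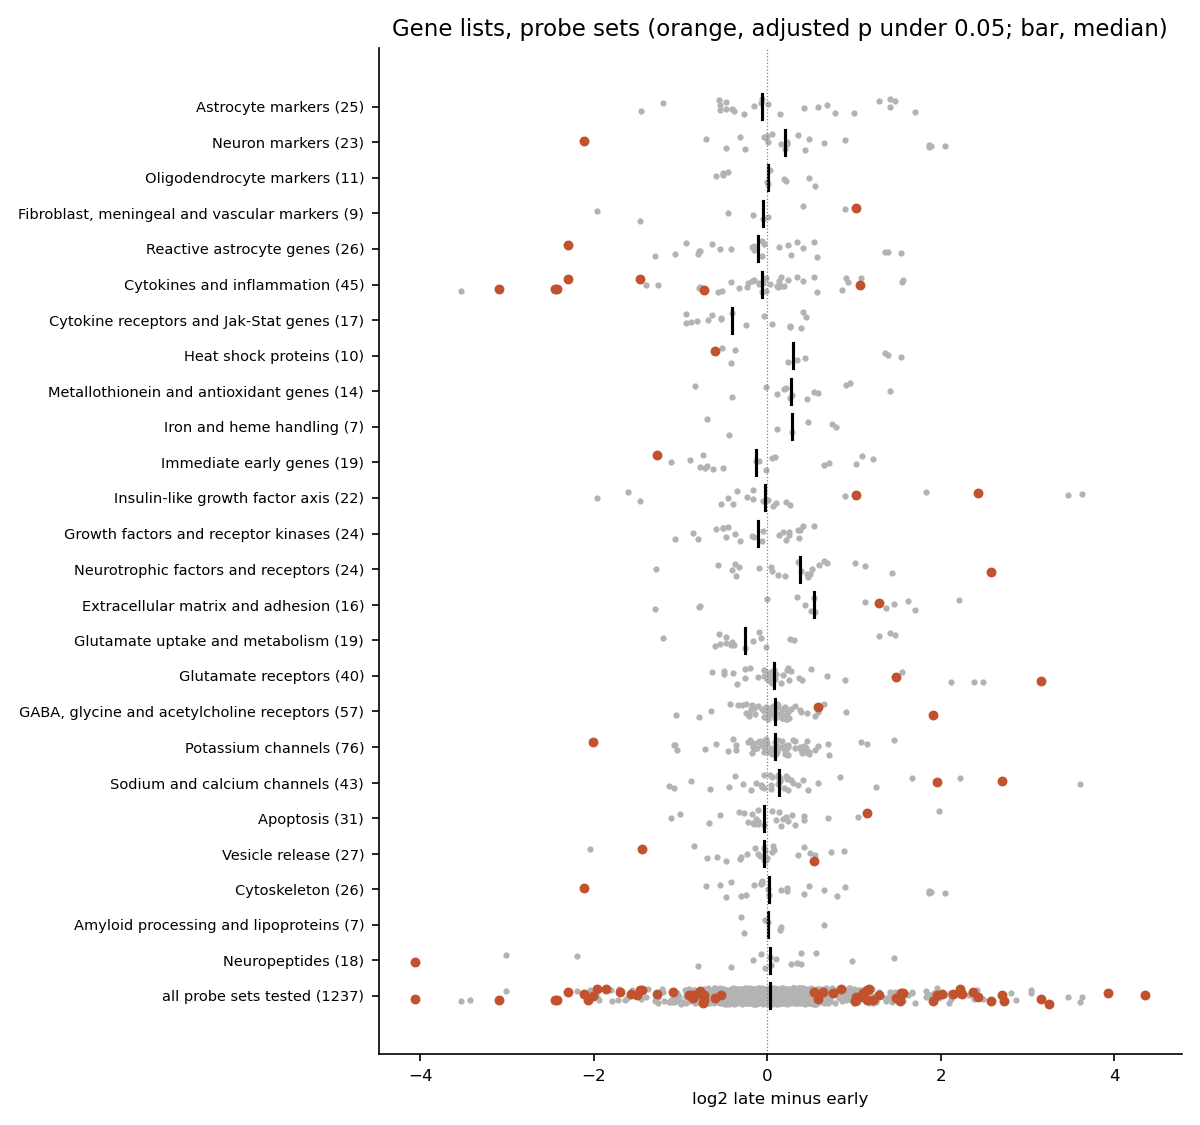
Points are probe sets of each list on the vertical axis, with the number of probe sets in brackets, at their log2 late minus early difference on the horizontal axis. Orange points passed a limma adjusted p of 0.05 and bars are medians, which lie between -0.41 for cytokine receptors and Jak-Stat genes and 0.54 for matrix and adhesion genes.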

How the data were processed

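RNA of 12 samples was hybridised to 1-colour arrays, and the authors deposited 1 intensity per probe set and array. How the authors computed and scaled these values is not given in the sources used here. The deposited intensity was not scaled again, since trimmed means agreed closely between arrays, while medians did not. The 59 control probe sets were left out, log2 was taken above a floor of 10.9, and late minus early was tested with limma 3.58.1 under R 4.3.3 (functions lmFit and eBayes, two-sided, 2 coefficients, 10 residual degrees of freedom, median residual SD 0.484) with Benjamini-Hochberg adjustment over 1237 probe sets. Folds are differences of mean log2 values, so those of probe sets near the floor are understated. Symbols came from the platform annotation: 1137 probe sets had 1, 8 had several and 118 had none, and 1132 matched the RefSeq gene table, with 0 changed. Values of different probe sets of a gene were kept apart.

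Named were the 12 largest differences in each direction, up to 4 called probe sets of each of 26 gene lists (up to 2 of the smallest p where none was called), 9 set genes, and up to 6 called probe sets without overlap that kept the call with the cluster block. The remaining called genes with 1 symbol were added after their values were seen, so that every such gene is given. The comparison, the lists and the array clusters were chosen with earlier results of these data known. Promoter windows came from RefSeq on GRCr8.

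Tested on simulated data of 1237 probe sets without array clusters, the procedure called 24% of probe sets that differed late against early by log2 0.5, 60% at 1, 92% at 2 and 98% at 3. It called 0.579% of unchanged ones. The number of arrays limits the precision. At most 0.713% of values were identical between arrays. Alternatives were other floors, a pseudocount of 16, a filter (signal over 43.05 on 3 arrays, 1000 probe sets), quantile, median and cyclic loess scaling, 4 time groups, time as a random block (correlation 0.209), trend and robust options, a replicate block, the clusters, and left-out times or arrays.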

Additional observations from a re-analysis of the deposited data

Results flagged for a closer look

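Among the probe sets named, 37 of 176 groups of 6 arrays held an array whose gap to its nearest neighbour, divided by the range of the group, was above Dixon's 95% critical value, where chance flags about 1 in 20 groups. Each group joins 2 exposure times. The probe sets are not independent of each other. Of the 37, 22 were on 3 days array 3, 10 on 1 day array 3, 3 on 1 day array 1 and 1 each on 1 day array 2 and 3 days array 1. The values below are that share of the range.

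The 3 days array 3 was the lowest late array for Adra1d (0.675), Clcn4 (0.726), Cntf (0.877), Ctxn1 (0.648), Gria3 (0.878), Lsamp (0.70), Nlgn1 (0.723), Nnat (0.706), Pak1 on AA851136_g_at (0.686), Pcp4 (0.767), Rarb (0.644), S100b (0.838) and 3 Slc1a3 probe sets (0.747, 0.681 and 0.69). It was the highest late array for Gja1 (0.778), Glud1 (0.73), Grk2 (0.707), Jak1 (0.813), Psen2 (0.747), Smn1 (0.874) and Stat3 (0.734). S100b had at most 21.6 on it on probe set S53527mRNA_s_at, against 555.2 to 1056.7 on the other late arrays.

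The 1 day array 3 was the lowest early array for the Apoe probe sets (0.806 and 0.684), Dusp5 (0.674), Hspd1 (0.666), Mapt (0.828), Mif (0.714), Nr4a3 (0.743) and S100b (0.838). It was the highest early array for Igfbp2 (0.819) and Nalcn (0.754). On S53527mRNA_s_at S100b thus stood apart on both arrays, with 21.6 on 1 day array 3 against 344.4 to 588.3 on the other early arrays. Its other probe set, rc_AI146214_at, was flagged on neither.

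The 1 day array 1 was the highest early array for Adra1d (0.817), Gria3 (0.637) and Rarb (0.796). The 1 day array 2 was the highest for Pcp4 (1.0), and the 3 days array 1 was the highest late array for Kcnma1 on U55995_at (1.0). In both of these the other arrays lay under the floor.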

How the results depend on the processing

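Floors at the 5th and 20th percentile, a pseudocount of 16, the filter, the scalings, trend and robust options, the cluster block and the fit within cluster 2 left both counts within 1.5 times of 34 and 28, with 25 to 41 higher and 27 to 39 lower. A replicate block gave 38 higher and 24 lower, with 32 of the 34 and 23 of the 28 among them. Those that did not pass with the replicate block were Ctnnd2, Grk2, Mif, Nptx2, Rb1, Rest and Smn1, at limma adjusted p-values of 0.0518 to 0.0726. The replicate numbers were not shown to pair cultures. Only between 1 day and 3 days did all 3 same-numbered arrays deviate together (correlations 0.347, 0.376 and 0.652), and array 3 of both lies in cluster 1. Other pairs of times had -0.108 to 0.064. Within the pools the replicate block gave 3 and 24 calls, against 3 and 28.

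Counts of higher and lower calls moved over 1.5 times with 4 time groups (77 and 65), with time as a random block (5 and 6), within cluster 1 (4 and 5, where the lone late array is assumed to vary like the others), without the 2 arrays that stood apart (98 and 105), and without the arrays of 12 hours (0 and 4), 1 day (90 and 67), 3 days (86 and 94) or 5 days (2 and 4). Without 1 array they ran from 9 to 92 and from 12 to 106. From 12 hours to 1 day quantile normalization gave 7 calls and leaving out 1 array 1 to 87, most without 1 day array 3. From 3 days to 5 days leaving out 1 array gave 15 to 50. Why a count moved was not tested.

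For the named probe sets that passed, direction turned in the fit within cluster 1 alone, for Adra1d (-0.06), Gria3 (-0.01), Grk2 (0.02) and Nlgn1 (-0.10). Ctnnd2 and Pcp4 had 0.00 there, since all arrays of cluster 1 lay at or under the floor for them, so no direction could show. In the other fits 1160 values of the named probe sets that passed kept direction and call and 550 kept direction and lost the call.

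The remaining turns belong to genes that did not pass. With the cluster as a block these were Apoe X04979_at (-0.55), Psen2 (0.25), S100b (-0.82 and -0.09), Slc1a3 (-0.23, -0.20 and -0.16) and Vim (0.06). Within cluster 1 they were Aco1 (0.60), Apoe (-1.09), Gja1 (0.79), Glud1 (0.11), Pdgfra (0.07), Psen2 (0.38), S100b (-3.19), Slc1a2 (0.21), Slc1a3 (-0.81, -0.49, 0.21 and -0.43) and Stat3 (0.26). Within cluster 2 they were Apoe (-0.25), Itgam (-0.33), Psen2 (0.18), S100b (-0.45), Slc1a3 (-0.04 and 0.00), Sod3 (-0.01) and Vim (0.17). Under quantile, median and cyclic loess scaling Itgam had -0.15, -0.07 and -0.05 and S100b rc_AI146214_at -0.13, -0.07 and -0.05, and Vim had 0.13 under the last. Without the arrays that stood apart Itgam had -0.03 and S100b -0.08. Without the 12 hours arrays Glul had 0.05, Itgam -0.29, S100b -0.22 and Vim 0.06. Without the 1 day arrays Slc1a2 had 0.22 and 0.26. Without the 3 days arrays Apoe had 1.35, Itgam -0.45, S100b -0.11, Slc1a2 0.11 and 0.03, and Vim 0.02. Without the 5 days arrays Apoe had -1.0 and S100b -0.44. Without 1 array, Apoe had -0.68 to 0.29 and -0.19 to 0.47, Itgam -0.14 to 0.21, S100b -0.03 to 1.58 and -0.08 to 0.13, and Slc1a2 -0.17 to 0.06.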
